A study of Homo sapiens with 16 samples.

Results

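The genes of the 2 subunits of the transcription factor GABP were examined for GABPα and ERG binding by chromatin immunoprecipitation and sequencing (ChIP-seq) in VCaP and Jurkat cells. The regions were chosen by position alone, on the hg18 genome build, as every peak starting in chr21:25980000-26120000 around GABPA or in chr15:48320000-48480000 around GABPB1. These windows of 140 and 160 kb surround gene starts near 26029000 and near 48434700, and all distances below are measured from these positions along the chromosome. Of 155269 peaks called by the program MACS in 10 ChIP samples, 37 lay in the windows, with 26 at GABPA and 11 at GABPB1. Of 39138 high confidence peaks, called by both MACS and the program SWEMBL, 23 lay in the windows, with 16 at GABPA and 7 at GABPB1.

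GABPA encodes GABPα, the subunit of GABP that binds DNA through an ETS domain and recognises a GGAA core within a longer motif. GABPB1 encodes GABPβ, which has no DNA-binding domain of its own, attaches to GABPα through ankyrin repeats and carries the transcriptional activation domain. The complex, also known as nuclear respiratory factor 2, is known for binding close to the starts of broadly expressed genes, among them many genes of mitochondria and basic cell metabolism. ERG is another ETS factor, normally a factor of blood and endothelial cells. In many prostate cancers it is expressed through a fusion of its gene to the androgen-responsive TMPRSS2.

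The study compared where GABPα and ERG bind. VCaP cells, a prostate cancer line that carries a TMPRSS2-ERG fusion, were profiled once per target at t0, which the labels do not explain, with vehicle (ethanol) and with 1 nM of the synthetic androgen R1881 (methyltrienolone), the last 2 after 48 h in charcoal-stripped serum. Jurkat cells, a T-cell line that the labels call lymphoma cells, were profiled as 2 replicates per target with no treatment given. For GABPα the labels and the study's methods name the same antibody, whereas for ERG the catalogue number in the labels is the one that the methods give for an androgen receptor antibody, so the target of the ERG samples is given as labelled. The study's methods describe the ChIP replicates as biological, the labels do not say how the Jurkat replicates were grown, and each VCaP condition was 1 sample.

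A MACS score is −10 log10 of the p-value that the program gave the peak against an input library, and the lists begin at a score of 50. The files hold no read counts, so that the depth of each library, on which the score depends, is unknown. Per the file headers, the vehicle and R1881 samples of a target were called against 1 shared input, as were both Jurkat replicates, whereas t0 had its own. To compare samples, each score was also placed among all MACS peaks of its own sample, as the percentage of those peaks with a lower score. GABPα lists held from 9531 peaks (VCaP t0) to 22108 peaks (Jurkat 2), and ERG lists from 6963 peaks (VCaP t0) to 23947 peaks (VCaP R1881). The lists hold no expression values, and the cell lines were not checked against marker genes.

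The promoter sequences of both genes are shown because the strongest GABPα peaks described below lay over the gene starts. They are the RefSeq promoter windows of build GRCh38.p14, from 250 bases before to 50 bases after the annotated start, written 5′ to 3′ on the gene's strand, and they are not converted to or from the hg18 peak positions. The printed windows do not hold all of the DNA under these peaks. Stretches within a high confidence GABPα peak of every GABPα sample had midpoints at 202.5, 436 and 923 bp from the GABPA start. At GABPB1 the midpoint was −289 bp from the start. Measured from these approximate hg18 starts, all of the midpoints were on the side into which the gene is read. The printed 50 bases are counted from the annotated GRCh38 start instead. Which of these stretches the printed windows hold was therefore not determined. Since the windows do not hold all of the DNA under the peaks, the motif counts below do not describe all of the bound DNA. Capitals mark CGGAA, an ETS core with 1 base before it, on either strand.
GABPA (chr21:25734722-25735021, plus strand): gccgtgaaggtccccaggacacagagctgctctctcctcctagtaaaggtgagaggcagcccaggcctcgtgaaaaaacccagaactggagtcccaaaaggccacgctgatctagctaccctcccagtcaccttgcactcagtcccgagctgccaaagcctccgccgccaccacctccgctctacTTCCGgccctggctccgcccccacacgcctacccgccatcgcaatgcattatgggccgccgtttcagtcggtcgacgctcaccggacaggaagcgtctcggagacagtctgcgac
GABPB1 (chr15:50355149-50355448, minus strand): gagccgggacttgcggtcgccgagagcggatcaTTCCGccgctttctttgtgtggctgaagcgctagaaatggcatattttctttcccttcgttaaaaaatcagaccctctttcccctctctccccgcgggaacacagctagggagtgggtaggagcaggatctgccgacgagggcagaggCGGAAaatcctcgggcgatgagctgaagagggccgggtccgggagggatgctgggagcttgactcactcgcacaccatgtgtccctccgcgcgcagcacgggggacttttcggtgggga

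The letters CGGAA occurred once in the GABPA window, on the reverse strand, and at 2 places in the GABPB1 window, once on each strand. Of 35116 promoter windows of the same length in RefSeq, 34.9% held these letters on either strand. The longer form CCGGAAGT, which contains CGGAA, was found in 4.14% of them. The GABPA window held 1 copy of CCGGAAGT, on the reverse strand at bases 184 to 191 of the window (chr21:25734905-25734912 of GRCh38.p14), and the GABPB1 window held 0. The shorter core GGAA, which the other forms contain, was present in 95.5% of windows and so separates few of them.

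GABPA shares its promoter region with ATP5PF, which encodes a coupling subunit of mitochondrial ATP synthase and is read from the opposite strand. RefSeq gives ATP5PF 2 promoter windows, which shared 17 and 167 bases with the GABPA window. The CCGGAAGT of the GABPA window was also found in the second of these at the same genome position, so that it is 1 copy counted in both promoters. A GABPα peak over this region therefore cannot be assigned to one of the 2 genes by position. RefSeq also lists the long noncoding RNA genes GABPB1-AS1 and GABPB1-IT1 beside GABPB1. Peaks at GABPB1 were not assigned between these and GABPB1. APP, the amyloid precursor protein gene, is the next protein-coding gene beyond GABPA. The peaks were not placed relative to exons or introns, because no hg18 annotation was used here.

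GABPα bound the start of its own gene in every sample. The MACS score at the GABPA start was 1166.09 in VCaP cells at t0, 2021.84 with vehicle and 1959.58 with R1881. In Jurkat cells it was 996.52 in replicate 1 and 649.85 in replicate 2. Vehicle and R1881 were thus the high samples, both Jurkat samples were below all 3 VCaP samples, and the groups did not overlap. The same held at 70% of the 1758 GABPα sites in the genome that had a high confidence peak in all 5 samples, so that this order was the usual one. The mean was 1716 ± 477 (SD, n = 3) in VCaP and 823 ± 245 (SD, n = 2) in Jurkat cells. In each of the 5 samples this was the highest-scoring GABPα peak of the window.

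GABPα also bound the start of the gene of its partner subunit in every sample. At the GABPB1 start the score was 1172.55 at t0, 2223.89 with vehicle and 2476.67 with R1881 in VCaP cells. It was 542.42 in Jurkat replicate 1 and 259.07 in Jurkat replicate 2. The order of the cell lines was the same as at GABPA, with a wider gap and no overlap. The mean was 1958 ± 692 (SD, n = 3) in VCaP and 401 ± 200 (SD, n = 2) in Jurkat cells. The highest score in any GABPα list was 3233.06, so that none of these values was at the top of the scale.

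ERG had no MACS peak within 1000 bp of either start in any of its 5 samples, and is set to 0 there, although a signal under the score of 50 cannot be seen in these lists. At the GABPA start the mean score was 1359 for GABPα (SD 607, n = 5) against 0 for ERG (n = 5), with an exact two-sided permutation p of 0.00794 over 252 relabellings, and the same p after Benjamini-Hochberg adjustment over the 2 loci. At the GABPB1 start the mean was 1335 for GABPα (SD 988, n = 5) against 0 for ERG, with the same exact permutation p and adjusted p of 0.00794. GABPα was higher in 5 of 5 settings at both starts, and this p is the smallest that 5 against 5 samples allow. The p concerns the target label over the pooled settings, not repeat cultures of the same condition. The SDs likewise span cell lines and treatments. The 5 settings of GABPα and ERG pair by cell line, treatment and replicate number. Exchanging the labels only within these pairs gave an exact permutation p of 0.0625 at both starts, which is not under 0.05 and is the smallest that 5 pairs allow.

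**Figure D1:**
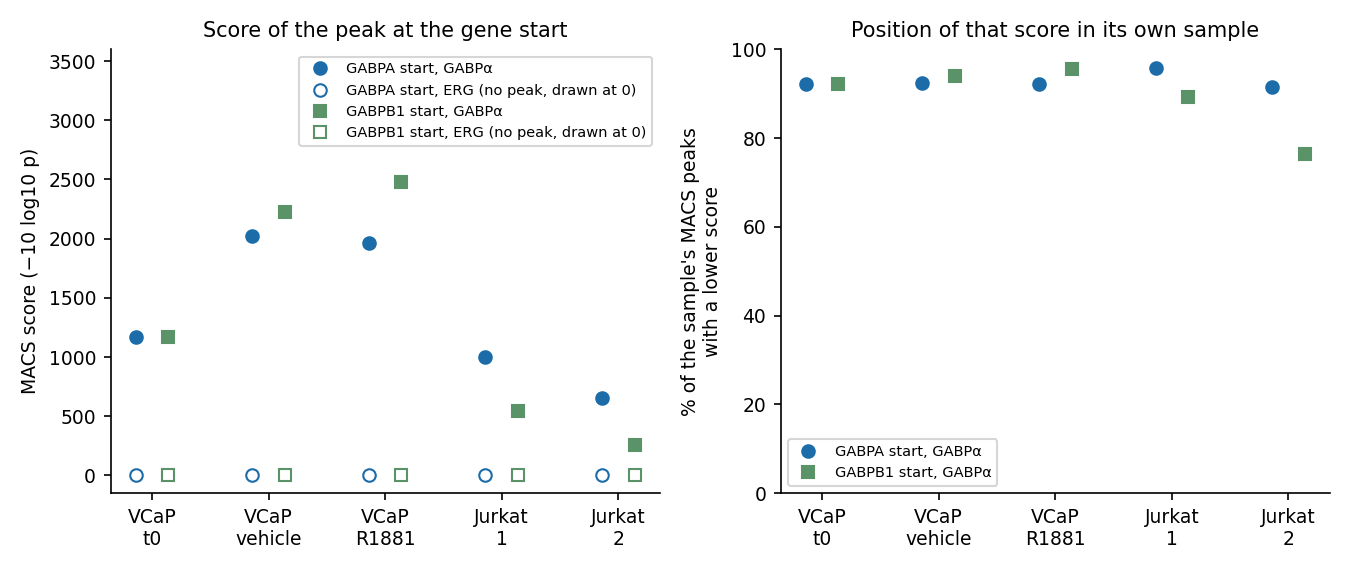
MACS score of the peak at each gene start by sample (left, linear axis) and the percentage of the sample's MACS peaks with a lower score (right, from 0 to 100%), each point being 1 sample. GABPα at GABPA (circles) and GABPB1 (squares) scored from 259.07 to 2476.67, whereas the open ERG points stand at 0 because no peak was called.

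Within their own lists, the start peaks were among the higher-scoring GABPα peaks. At GABPA, the share of peaks with a lower score was 92.2% in the t0 sample, 92.5% in the vehicle sample and 92.1% in the R1881 sample. In Jurkat replicates 1 and 2, 95.9% and 91.5% scored lower. By this measure the cell lines overlapped at GABPA, with means of 92.3% ± 0.216 (SD, n = 3) in VCaP and 93.7% ± 3.08 (SD, n = 2) in Jurkat cells.

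At GABPB1 the corresponding shares in VCaP cells were 92.3% (t0), 94.0% (vehicle) and 95.5% (R1881). In Jurkat replicates 1 and 2 they were 89.2% and 76.5%. Here both Jurkat samples remained below the VCaP samples, with means of 82.8% ± 8.98 (SD, n = 2) and 93.9% ± 1.60 (SD, n = 3). How many other sites were separated in this way by percentile was not counted, so whether this was usual is not known. The difference of −11.1 percentage points was −26.9 points when the score was placed among high confidence peaks only, and −4.75 points without Jurkat replicate 2. With 3 samples against 2 the smallest exact p is 0.1, and no p is given for either locus alone between the cell lines.

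A high confidence GABPα peak was present at both starts in all 5 GABPα samples. Of 12123 merged GABPα high confidence sites in the genome, the 1758 already named (14.5%) had one in all 5 samples. Within this set the start sites were not extreme. At GABPA the share of these sites with a lower score ran from 45.2% with R1881 to 82.4% in Jurkat replicate 1. At GABPB1 it ran from 24.9% in Jurkat replicate 2 to 66.6% with R1881. The absence of ERG at the starts was likewise common, as 61 of the 1758 sites (3.47%) overlapped an ERG MACS peak in any ERG sample.

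The MACS peak over the GABPA start held more than 1 high confidence peak in every GABPα sample, of which only the first covered the start itself. The MACS peak ran from 26028772 to 26030897 at t0, from 26028146 to 26030988 with vehicle and from 26028079 to 26030997 with R1881. In Jurkat cells it ran from 26028090 to 26030550 and from 26028238 to 26030893. These widths of 2126 to 2919 bp exceeded those of 98.5% to 99.6% of the MACS peaks in the same lists. The peak held 3 high confidence pieces with vehicle and 2 in each of the other samples. Among GABPα MACS peaks with a high confidence peak, 6.5% (t0), 11.3% (vehicle), 12.8% (R1881), 14.5% (Jurkat 1) and 12.3% (Jurkat 2) held 2 or more pieces.

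The pieces stood at nearly the same place in each sample. At t0 they were chr21:26028960-26029442 and chr21:26029870-26029978. With R1881 they were chr21:26028943-26029609 and chr21:26029745-26029986, and in Jurkat replicate 2 chr21:26028988-26029571 and chr21:26029795-26029976. With vehicle the first block was split by a short gap, giving chr21:26028944-26029417, chr21:26029430-26029585 and chr21:26029746-26030024. Jurkat replicate 1 had chr21:26028973-26029589 and chr21:26029796-26030009.

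The outer edges of the pieces at GABPA varied by 45 bp on the lower side and by 48 bp on the upper side over the 5 samples. The positions common to all samples were a block of 430 bp (chr21:26028988-26029417), a remnant of 13 bp left by the gap with vehicle (chr21:26029430-26029442), and a separate block of 107 bp (chr21:26029870-26029976). The first and the last block had midpoints 720.5 bp apart. The first reached across the gene start and the last lay beyond it, on the side into which GABPA is read.

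At GABPB1 the MACS peaks were narrower, from 978 bp at t0 to 2147 bp with vehicle. A high confidence piece was found on the lower side of the start in each sample, into the gene, since GABPB1 is read from the minus strand. It was chr15:48434294-48434575 at t0, chr15:48434239-48434563 with vehicle and chr15:48434236-48434540 with R1881. In Jurkat cells it was chr15:48434271-48434528 and chr15:48434291-48434528. A second piece, over the start position itself, was called with vehicle (chr15:48434630-48434830) and with R1881 (chr15:48434592-48434724).

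No second piece was called at GABPB1 at t0 or in either Jurkat sample. The lower edge varied by 58 bp over the 5 samples and the upper edge, through the second piece, by 302 bp. A stretch of 235 bp, chr15:48434294-48434528, was common to all 5. The vehicle and R1881 samples with the second piece also had the highest scores at this start, and the part of the score in the number of pieces was not tested.

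**Figure D2:**
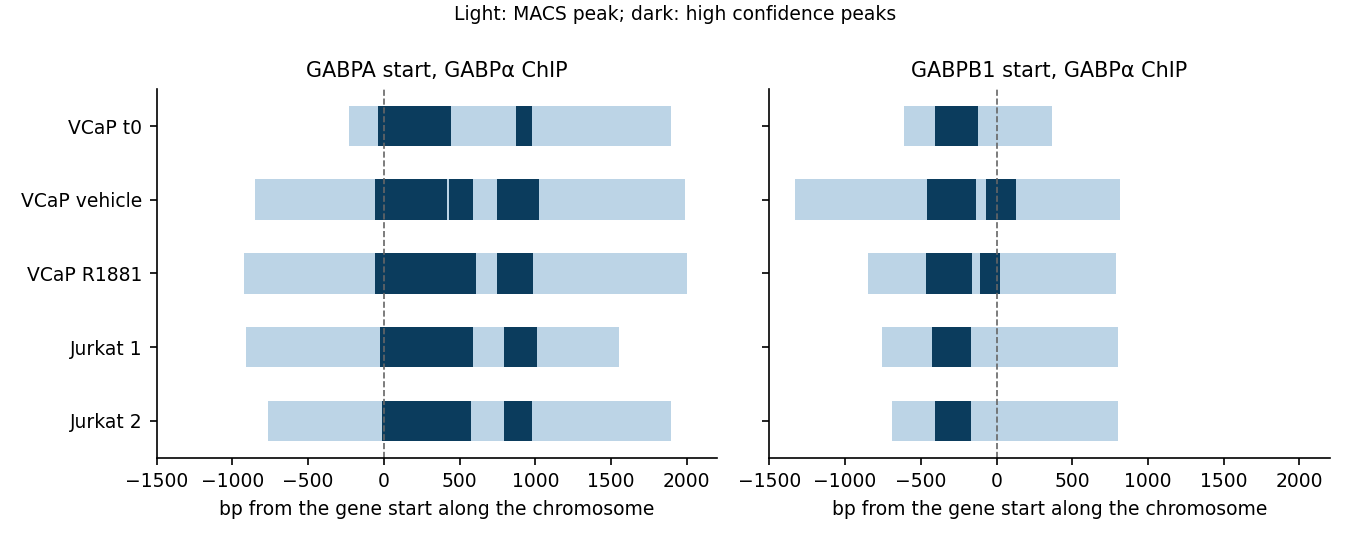
Extent of GABPα peaks at the GABPA (left) and GABPB1 (right) gene starts in the 5 GABPα samples, in bp from the gene start, with MACS peaks in light and high confidence peaks in dark blue. GABPA carried 2 or 3 dark blocks in every sample, and GABPB1 a second block in VCaP cells with vehicle and R1881 only among these samples.

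With R1881 the GABPα scores at the starts differed little from those with vehicle. The ratio of R1881 to vehicle was 0.969 at GABPA (log2 −0.05) and 1.11 at GABPB1 (log2 0.16). Over 9871 GABPα sites called in both samples the median ratio was 1.00 and 25.8% of sites differed by at least 1.5 times in either direction. The highest score was 3233.06 in both lists, and how far sites at equal scores near this top set the median was not tested. A ratio lower than that at GABPA was found at 44.3% of sites, and a ratio lower than that at GABPB1 at 67.3%. Each condition was 1 sample, so that these ratios have no test.

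The Jurkat replicates give the spread of such ratios where no treatment differed. Of 15552 sites called in both, 30.7% differed by at least 1.5 times, around a median ratio of replicate 1 to replicate 2 of 1.04. The GABPA start had a replicate ratio of 1.53 and the GABPB1 start one of 2.09, with 83.8% and 95.1% of sites lower. Both loci thus differed more between the Jurkat replicates than between R1881 and vehicle in VCaP cells.

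From t0 to vehicle the score rose in number at both starts, 1.73 times at GABPA (log2 0.79) and 1.90 times at GABPB1 (log2 0.92). It did so across the list, as the median ratio over 4631 sites called in both was 3.00, and 83.7% of sites differed by at least 1.5 times. A lower ratio than that of the start was found at 23.4% of sites for GABPA and at 27.4% for GABPB1. Relative to the median site, the ratios were 0.578 and 0.632. The 2 samples had different input libraries and unknown depths, whose part in the difference was not tested.

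**Figure D3:**
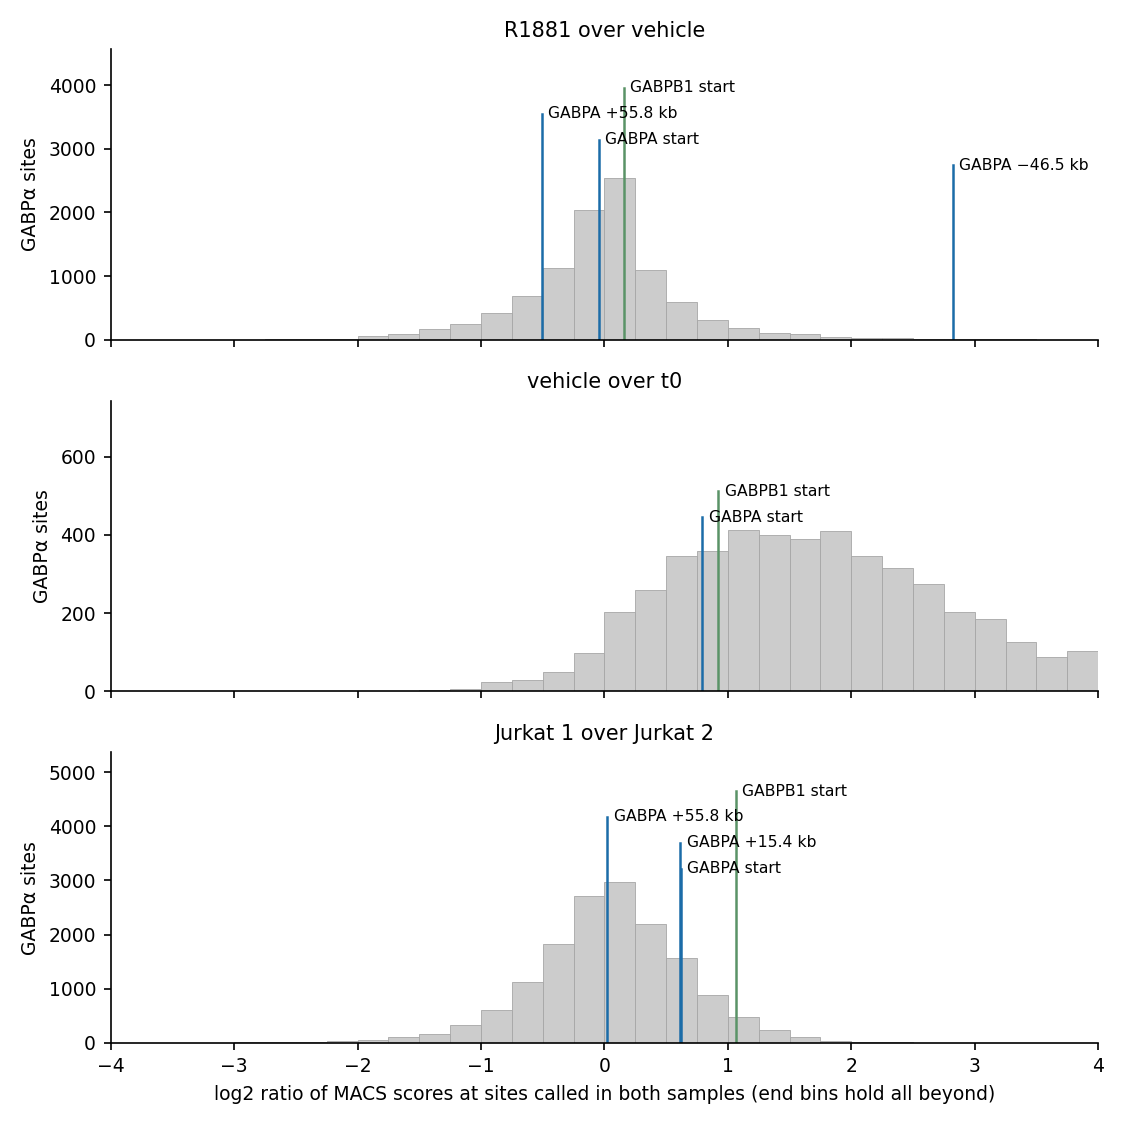
Number of GABPα sites by log2 ratio of their MACS scores in R1881 over vehicle, vehicle over t0 and Jurkat 1 over Jurkat 2, with the sites of the GABPA (blue) and GABPB1 (green) windows as vertical lines. The starts lie near 0 for R1881 over vehicle, and the GABPA site at −46.5 kb lies at 2.82, where 14 of 9871 sites had a ratio at least as high.

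Away from the starts, GABPα had 12 MACS peaks with scores from 51.48 to 590.76, of which 5 held a high confidence peak. Over all GABPα MACS peaks of the 5 samples, 35.2% held one. At the rate of all GABPα peaks along the chromosomes of the windows, both windows together would hold 11.1 over the 5 samples. With the start peaks they held 22. The 12 alone were not set against this rate, because it also counts peaks at gene starts. By window, the counts with start peaks were 16 against 5.53 at GABPA and 6 against 5.54 at GABPB1. In each of these counts 5 were start peaks, so most of the 12 lay at GABPA. These 12 peaks and the peaks at the starts merged into 9 GABPα sites, 7 at GABPA and 2 at GABPB1. The 5 with high confidence lay at 2 of these sites, both at GABPA.

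The site at 55.8 kb beyond the GABPA start, chr21:26084129-26085424, had a GABPα score of 296.95 with vehicle, 209.1 with R1881, 514.07 in Jurkat replicate 1 and 505.42 in Jurkat replicate 2. No GABPα peak was called there at t0. All 4 peaks held a high confidence peak, where 21.5% of the merged high confidence sites had one in at least 4 samples. A call in every GABPα sample except t0 was made at 1.5% of 46873 merged MACS sites. Here the Jurkat samples were the high ones, the reverse of the order at both starts, and the groups did not overlap. Both Jurkat scores were above the vehicle and R1881 scores at 16.2% of 3086 sites called in these 4 samples. The score with R1881 was 0.704 times that with vehicle (log2 −0.51), with a lower ratio at 16.9% of sites, and the Jurkat replicates had a ratio of 1.02.

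The site at −46.5 kb, chr21:25981954-25983006, was called for GABPα with vehicle (83.52, MACS only) and with R1881 (590.76), and in no other GABPα sample. A high confidence peak was present with R1881 only among the 5 samples, at chr21:25982648-25982737. Its ratio of R1881 to vehicle was 7.07 (log2 2.82), and 14 of 9871 sites had one at least as high. A departure of this size from the median, in either direction, was seen at 18 of 15552 sites between the Jurkat replicates. A call with vehicle and R1881 and in no other GABPα sample was made at 9.29% of merged MACS sites. The separate ERG sample with R1881 also had a MACS peak there, given below, and for each target the vehicle and R1881 conditions were 1 sample each.

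The site at 15.4 kb, chr21:26043997-26044855, was called for GABPα in both Jurkat replicates, with scores of 261.11 and 170.33, and in no VCaP sample. Neither peak held a high confidence peak. A call in both Jurkat samples and no VCaP sample was the case for 25.3% of merged GABPα MACS sites, so that such a site was not unusual. The remaining 3 GABPα sites at GABPA were called in 1 VCaP sample each, with scores of 51.48 and 60.84 with R1881 and 57.85 at t0, near the lower limit of the lists. At GABPB1 the only GABPα peak away from the start, at 33.5 kb, scored 58.76 in Jurkat replicate 1.

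**Figure D4:**
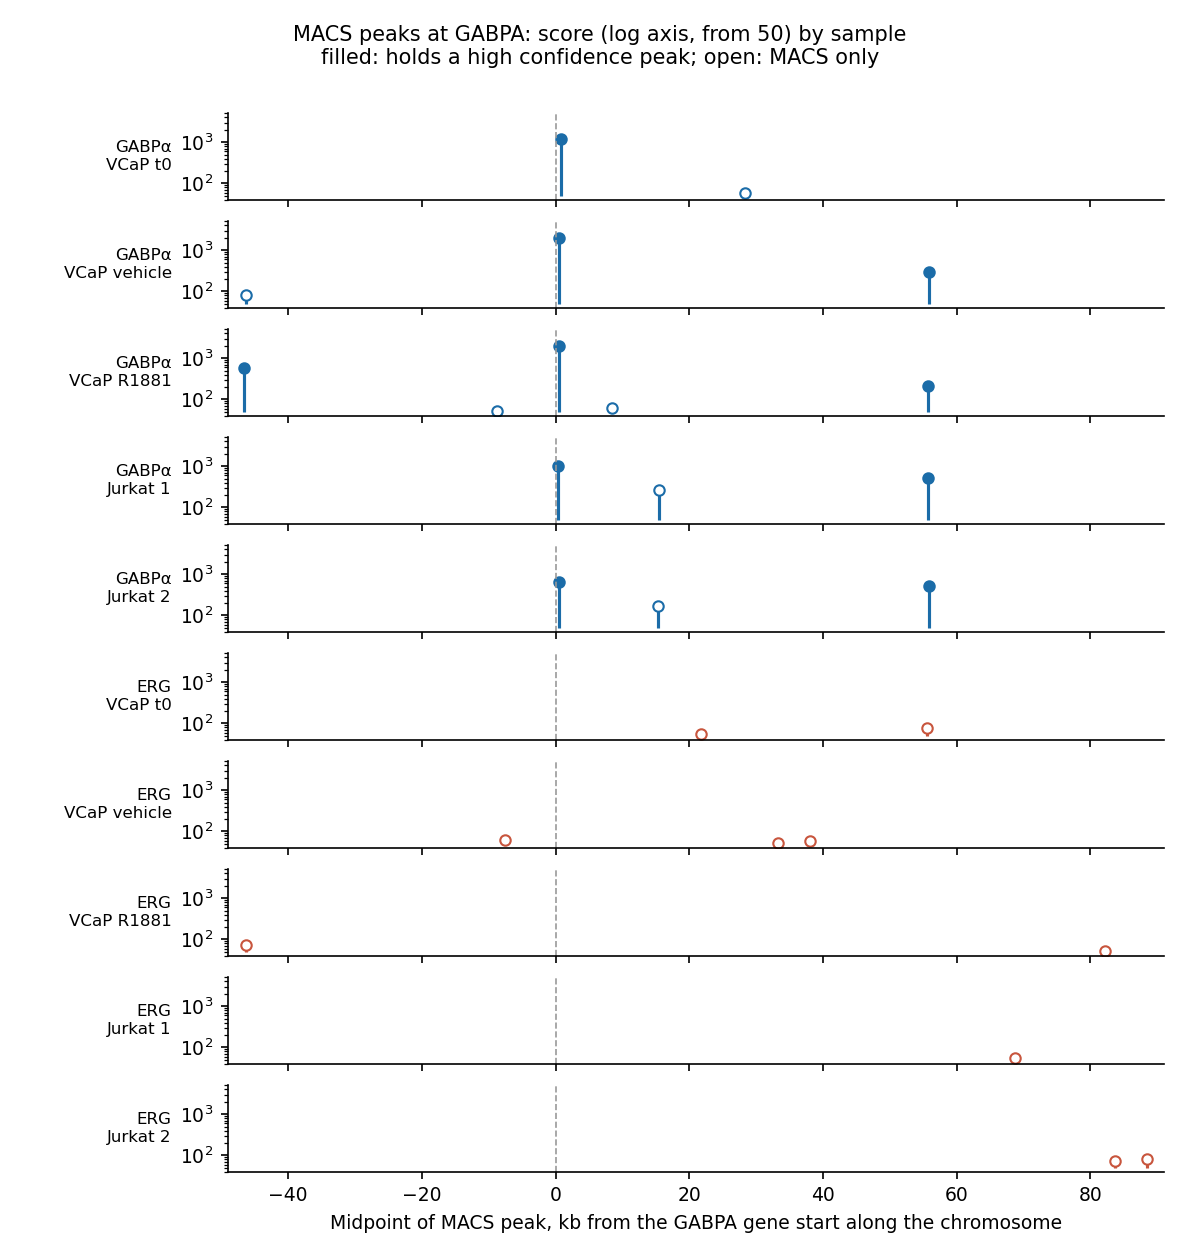
MACS peaks in the GABPA window in each of the 10 ChIP samples, by distance of the peak's midpoint from the gene start in kb and by score on a log axis from 50 (filled points hold a high confidence peak, open points do not). GABPα (blue) has a peak at the start in 5 of 5 samples and at 55.8 kb in 4, and ERG (red) has 10 open points, none at the start.

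ERG had 15 MACS peaks in the windows, 10 at GABPA and 5 at GABPB1. At the rate of ERG peaks along chromosomes 21 and 15 in the same lists, windows of this length would hold 8.23 and 4.96 over the 5 samples, so that the counts were near the background. The scores ran from 51.13 to 90.86 with a median of 64.15, which lies within the medians of the 5 whole ERG lists, from 57.54 to 77.51. In their own lists these peaks scored above 6.37% to 89.0% of the ERG peaks, with the highest place at 55.8 kb of GABPA at t0. All 15 scored below the lowest of the 10 GABPα start peaks, 259.07. None was in the SWEMBL or high confidence lists, where over the 5 ERG samples together 7.46% of MACS peaks held a high confidence peak. None of the sites was called in 2 or more ERG samples, whereas 20% of 58847 merged ERG MACS sites in the genome were.

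By sample, the GABPA window held 2 ERG peaks at t0, 3 with vehicle, 2 with R1881, 1 in Jurkat replicate 1 and 2 in Jurkat replicate 2. The GABPB1 window held 0, 0, 1, 1 and 3 in the same order. The longest ERG lists, of VCaP cells with R1881 (23947 peaks) and vehicle (19504 peaks), thus gave 3 peaks each over both windows, against 4.63 and 4.02 at the rates of these chromosomes. The list of Jurkat replicate 2 (15229 peaks) gave 5, against 1.98.

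ERG and GABPα peaks overlapped at 2 of 22 merged sites, while 7 sites were called for GABPα only and 13 for ERG only. Of 93526 merged MACS sites in the genome, 12.6% were called for both, 37.5% for GABPα only and 49.9% for ERG only. At −46.5 kb of GABPA, the ERG peak with R1881 (chr21:25982408-25982890, score 73.92) covered all 90 bp of the GABPα high confidence peak of the same condition. At 55.8 kb, the ERG peak at t0 (chr21:26084284-26084783, score 78.57) lay inside the GABPα MACS peaks of 4 other settings, and overlapped their high confidence peaks by 16 bp with vehicle, 33 bp in Jurkat replicate 1 and 106 bp in Jurkat replicate 2. It did not overlap the high confidence peak with R1881. At that site a peak was thus called at t0 for ERG and not for GABPα, in separate samples. The ERG peak was called by MACS only, and the GABPα list at t0, with 9531 peaks, was the shortest GABPα list.

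The ERG peak nearest to a start was at GABPB1 with R1881 (chr15:48431960-48432472, score 73.26), 2228 bp from the start. In the other ERG samples the nearest MACS peak to the GABPB1 start was 108426 bp away at t0, 89454 bp with vehicle, and 26383 and 94152 bp in the Jurkat replicates. For GABPA the nearest was 7329 bp away with vehicle, 21514 bp at t0 and 46110 bp with R1881. In the Jurkat replicates it was 68625 and 83289 bp away. No distance was shared between samples, and the nearest ERG high confidence peak in any sample stood 130860 bp from GABPA and 478579 bp from GABPB1, both with R1881.

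**Figure D5:**
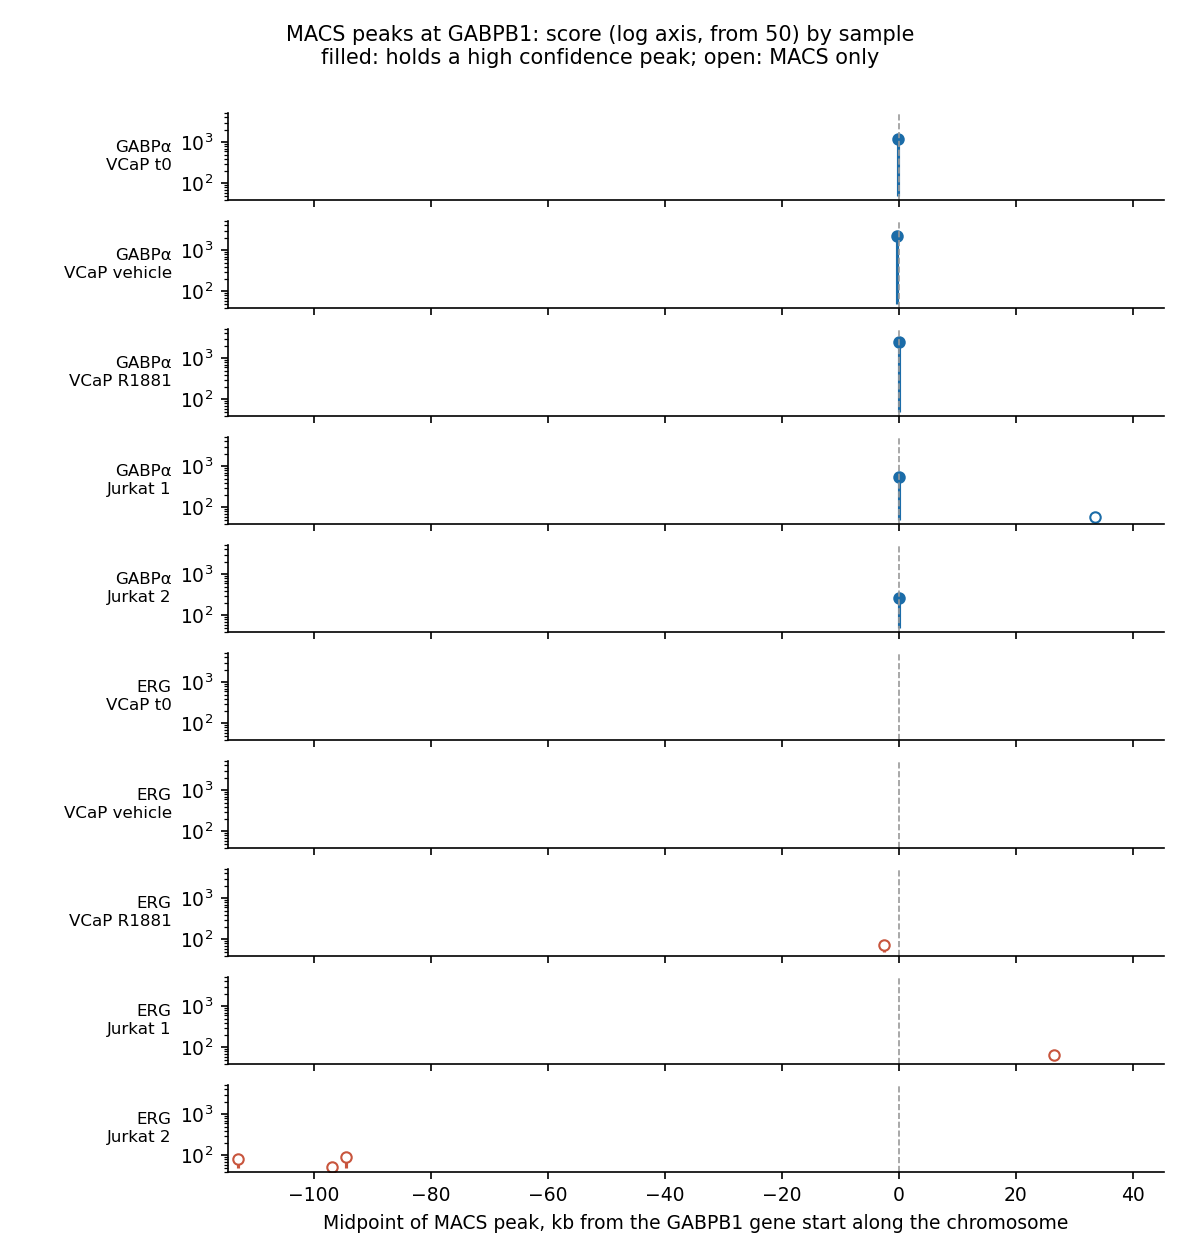
MACS peaks in the GABPB1 window in each of the 10 ChIP samples, by distance of the peak's midpoint from the gene start in kb and by score on a log axis from 50 (filled points hold a high confidence peak, open points do not). GABPα (blue) has filled points at the start in 5 of 5 samples, and the 5 ERG points (red) are open and lie elsewhere.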

How the data were processed

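Peak lists of 10 ChIP samples were used, and 6 input samples had no list analysed here. The authors aligned single-end reads to hg18 with BWA 0.5.5, removed duplicates and alignments of quality under 15, and called peaks per sample against input with MACS and SWEMBL. The score in the deposited MACS lists is −10 log10 of the p-value. The 3 high confidence lists without scores, and the SWEMBL lists, gave intervals only.

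A shared base (1 bp) counted as an overlap of peaks, and MACS peaks of different samples were merged into sites, with the highest score kept per sample. Targets were compared by exact two-sided permutation tests, with Benjamini-Hochberg adjustment over 2 loci, in Python 3.11.15 (numpy 2.4.6, pandas 2.3.3, matplotlib 3.10.9). The functions were tested on simulated data. Both windows and all comparisons were chosen with earlier results of these data known. GABPA and GABPB1 were named with all their peaks, and neighbouring genes from RefSeq without values. A list of other genes of the pathway was not analysed here, because no hg18 annotation was used. Pairs of GABPα and ERG samples came from the labels, by cell line, treatment and replicate number.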

Additional observations from a re-analysis of the deposited data

Results flagged for a closer look

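The scores at the 2 gene starts stood in opposite order in VCaP and Jurkat samples, a pattern noticed in the data that no test of 3 against 2 samples could call. The ratio of the GABPα score at GABPB1 to that at GABPA was 1.01 at t0, 1.10 with vehicle and 1.26 with R1881 in VCaP cells, and 0.544 and 0.399 in Jurkat replicates 1 and 2. All 3 VCaP samples were thus above 1 and both Jurkat samples below. On the log2 scale the mean was 0.16 ± 0.17 (SD, n = 3) in VCaP and −1.10 ± 0.32 (SD, n = 2) in Jurkat cells, a difference of 1.26 with an exact two-sided permutation p of 0.1, the smallest that 3 against 2 samples allow. The difference in percentile between the starts, GABPB1 minus GABPA, was 0.105, 1.49 and 3.37 points in VCaP and −6.72 and −15.1 points in Jurkat cells. Of the other 1757 sites with a high confidence peak in all 5 samples, 151 (8.59%) likewise scored above the GABPA start in all 3 VCaP samples and below it in both Jurkat samples. This comparison was chosen after seeing the data.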

How the results depend on the processing

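With the replicate block, the difference between GABPα and ERG at the GABPA and GABPB1 starts stayed 1359 and 1335 score units, with an exact permutation p of 0.0625 that cannot pass the threshold of 0.05. With VCaP samples only the differences were 1716 and 1958 (exact permutation p = 0.1), and with Jurkat samples only 823 and 401 (exact permutation p = 0.333), again the smallest p those samples allow. Leaving out each sample in turn gave 1193 to 1536 at GABPA and 1049 to 1604 at GABPB1, with an adjusted exact permutation p of at most 0.0238. The other alternatives (distance, percentile, minimum score, high confidence peaks only, and, chosen after seeing the data, the lowest listed score for samples without a peak) kept the direction and the call at both starts. Most of these could not have given another call, since ERG had no peak within 1000 bp of either start. ERG peaks entered at 5000 bp at GABPB1, where the difference was 1320. They also entered over the whole windows, where it was 1288 at GABPA and 1289 at GABPB1. Divided by the median ratio, vehicle over t0 moved to 0.578 at GABPA and 0.632 at GABPB1. The share of sites past the fold moved to 10.3% for R1881 over vehicle and 78.7% for vehicle over t0 among high confidence sites, and to 10.8% and 70.5% with a fold of 2. The difference in percentile, Jurkat minus VCaP, moved from 1.44 to 5.87 points at GABPA and from −11.1 to −26.9 at GABPB1 among high confidence peaks, and ran from −0.74 to 3.62 and from −17.5 to −4.75 with each sample left out, so that its sign at GABPA depended on Jurkat replicate 1. The log2 difference between cell lines in the ratio of GABPB1 to GABPA ran from 1.04 to 1.49 with each sample left out. The share of GABPα sites in all 5 samples was 19.4% when a MACS peak counted as a call and 14.5% with high confidence peaks only. ERG peaks fell to 0 in both windows in the SWEMBL and high confidence lists, and the nearest ERG peak moved to 130860 bp at GABPA and 478579 bp at GABPB1. The lists limit the comparisons: an absent peak is one under the lowest listed score, depth is unknown, and no VCaP condition was repeated.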
